A study of Rattus norvegicus with 16 samples.

Results

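Isolated rat pancreatic islets that carried a PPARγ adenovirus were compared with islets that carried a null adenovirus, with the PPARγ agonist GW347845 present on both sides. The comparison was made up by label: 4 arrays titled PPARγ with compound (replicates 1 to 4) against 3 arrays titled null virus with compound (replicates 1, 3 and 4), so 7 of the 16 columns of the series. Every probe set except the array's own controls was a member of the comparison, 15866 of 15923. Per the labels, islets were exposed for 32 h to either virus, at 50 viral particles per cell, and both groups were then held for 16 h in 200 nM GW347845. The arrays of the vehicle groups (3 null virus, 4 PPARγ virus, 16 h in 0.004% DMSO) are used beside it. Neither the DMSO content of the compound medium, nor the promoter of the viral PPARγ, nor the islet cells that took up virus is not given in the sources used here. Null virus compound replicate 2 was left out because its values equalled those of null virus vehicle replicate 2 in 100% of probe sets, and that vehicle column was left out with it. Nothing in the labels says that replicates were separate islet preparations, so p-values measure only the spread between these arrays, which may be technical.

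PPARγ is a nuclear receptor that binds DNA as a partner of the retinoid X receptors and switches on genes when fatty acids or synthetic agonists occupy it. It is best known as the driver of fat cell formation, where its targets take up fatty acids, make triglyceride and coat lipid droplets. Its relatives PPARα and PPARδ act on overlapping genes of fatty acid oxidation. In islets the receptor is present at low levels, and stored lipid and fatty acid oxidation both bear on insulin secretion by beta cells.

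The arrays were of like brightness, and insulin mRNA marked all of them as islet. Values are linear intensities, scaled by the authors to the same trimmed mean, and median intensity was 57.0 to 65.1 over the 7 arrays. Ins1 read 4626.9 to 6134.2 and Iapp, the amylin gene, 3172.3 to 4764.9 over the same arrays. The ratio of 3′ to 5′ signal of the Gapdh controls, a measure of RNA integrity, was 18.9 in null virus replicate 3 and 8.39 to 11.04 in the other 6 arrays. Between the viruses the exact two-sided permutation p was 0.80 for median intensity, 0.457 for the Gapdh ratio and 0.914 for the actin ratio (0.914 for each when adjusted over the 3), and the smallest p that 3 arrays against 4 allow is 0.0571. In bulk islets, fewer cells of a type and less RNA per cell cannot be told apart.

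The 4 PPARγ virus arrays differed among themselves in the hormones of the other islet cells. Gcg, the glucagon gene of alpha cells, read 3606.2, 180.8, 3910.6 and 1221.3 in PPARγ virus replicates 1 to 4, and 2879.2, 3305.3 and 3282.0 in null virus replicates 1, 3 and 4. Ppy, the pancreatic polypeptide gene, read 2689.2, 67.6, 2172.4 and 720.4 with the PPARγ virus and 2105.9, 1004.2 and 2906.3 with the null virus. Replicates 2 and 4 were thus low in both hormones, replicate 2 the more so, and the same replicates were low in the PPARγ virus arrays in vehicle (Gcg 3788.0, 420.8, 4191.7 and 1231.3). None of the 7 tested markers of non-beta hormone cells passed, with a median log2 change of -0.35. Gcg (-1.24) and Ppy (-1.30) changed sign without replicates 2 and 4, to 0.25 and 0.40. The summed intensity of all 7 markers was 584.1 to 9546.5 with the PPARγ virus and 5585.7 to 7614.4 with the null virus. None of these 7 markers was near 0 in all arrays of a group. Among the 64 rises described later, both of these replicates were below both others in 25 (39.1%, against 25.7% of all tested probe sets) and above both others in 10 (15.6%, against 21.6%).

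Pparg itself, the gene that the virus carries, had the largest rise of all probe sets. Pparg read 25.6, 51.4 and 30.5 in null virus replicates 1, 3 and 4 and 5932.1, 4593.4, 5966.4 and 5548.7 in PPARγ virus replicates 1 to 4. The groups did not come near each other, and the change was 141-fold (log2 7.14 ± 0.18 SE, limma adjusted p = 3.98e-12). In vehicle the PPARγ virus arrays read 4939.2 to 6199.1. The receptor mRNA thus spanned a like range without agonist, and its virus effect differed between compound and vehicle by -0.09 ± 0.26 (SE, log2), which did not pass. The other nuclear receptors and cofactors on the list did not pass. Among the 5 tested, Ncor1, a corepressor, had the highest change at 0.36 and Med1, a mediator subunit, the lowest at -0.25. Rxra, the usual partner of PPARγ, was not tested, at 8.6 to 10.6 with the null virus and 8.2 to 10.5 with the PPARγ virus.

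With agonist on both sides, 71 probe sets passed at an adjusted p of 0.05, of 10078 tested (0.705%). Of these, 64 rose (0.635%) and 7 fell (0.0695%), and they named 56 rising and 6 falling genes. Fold changes are on the scale log2(intensity + 4.6) and understate the change of dim genes. In 22 of the 64 rises the null virus mean lay below 39.3, the intensity that decided which probe sets were tested. Some of these, among them Plek, Sgk2, Fga, Ang, Igf1, Aqp7, Agps, Nr1h3 and Cx3cl1, were above it in PPARγ virus arrays alone. All 71 had arrays that did not overlap between the viruses, against 4.56% of all tested probe sets that lay wholly higher and 5.26% that lay wholly lower. Of the rises 40 were above 2-fold and 15 above 4-fold, and of the falls 2 were above 2-fold. The median change over all tested probe sets was -0.03, and the median 95% confidence interval reached 0.37 to either side on the log2 scale. The count depended on single arrays. It was lowest, at 31, without null virus compound replicate 3, the array with the Gapdh ratio of 18.9. The part of RNA integrity in this was not tested. The count was 39 without null virus compound replicate 4, 42 without PPARγ compound replicate 1 and 47 without PPARγ compound replicate 3. Without PPARγ compound replicates 2 and 4 it was 43, of which 32 were among the 71. Dropping each of the 14 arrays in turn, 25 of the 71 passed every time. In 7 of these fits the dropped array was a vehicle array, which enters this change only through the shared spread and the filter. Counts out of 14 fits can thus look steadier than the compound arrays alone would show. At an unadjusted p under 0.05 there were 926 probe sets (9.19%).

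**Figure D1:**
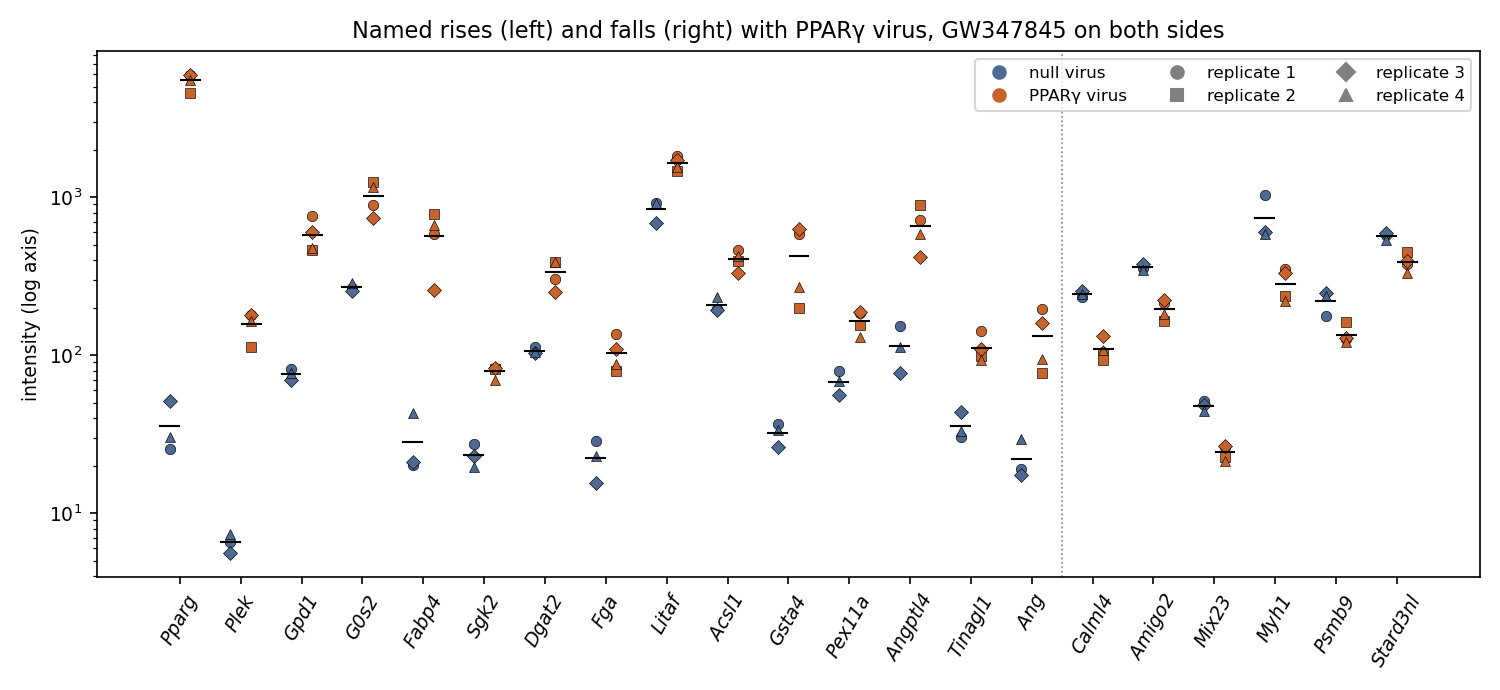
Intensity (log axis) of the 15 leading rises and the 6 falls in each array, null virus in blue and PPARγ virus in orange, both with GW347845. Marker shape gives the replicate number and the short line the mean of the group. Pparg stands at 25.6 to 51.4 against 4593.4 to 5966.4. In every gene shown the groups do not overlap, which was part of the rule for naming them.

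Genes that bring fatty acids into the cell and hold or activate them held some of the largest rises. Of 15 tested genes of fatty acid uptake, binding and activation, 3 rose (20%, against 0.635% of all probe sets), 0 fell and the median change was 0.04. All lists here were chosen with earlier results of these data known. They count 1 probe set per gene, so this share and those of the later lists are descriptions, not tests of enrichment. Fabp4, the fatty acid binding protein of fat cells and macrophages, read 20.3, 21.1 and 43.0 with the null virus and 585.4, 780.7, 259.8 and 662.2 with the PPARγ virus. Replicate 3 was the lowest of the 4, yet far above the highest null virus array. The change was 17.1-fold (log2 4.10 ± 0.39 SE, adjusted p = 6.49e-05). Cd36, the membrane translocase for fatty acids, read 18.7, 8.2 and 13.3 with the null virus and 53.9, 127.1, 90.8 and 84.4 with the PPARγ virus. Cd36 rose 5.15-fold (2.36 ± 0.43, adjusted p = 0.0150) and was above the filter of 39.3 in the 4 PPARγ virus compound arrays alone, so it was not tested when one of these was dropped. In the other 10 fits with an array dropped it passed in 8, with an adjusted p of up to 0.102. A brighter probe set that the annotation gives to both Cd36 and Cd36l1 rose 4.82-fold (2.27 ± 0.19), from 207.0 to 319.8 up to 1060.5 to 1487.7, and passed in all 14. Acsl1, which joins fatty acids to coenzyme A, rose in both its probe sets, by 0.94 ± 0.13 (adjusted p = 0.00211) and by 1.23 ± 0.24 (adjusted p = 0.0256). Its brighter probe set read 194.5 to 233.3 with the null virus and 331.5 to 463.2 with the PPARγ virus. Lpl, lipoprotein lipase, did not pass at 1.34 ± 0.34 (adjusted p = 0.111), with 159.7 to 253.5 against 283.6 to 756.3. The other fatty acid binding proteins and the SLC27 transporters stayed close to 0, with Fabp3 at 0.21, Fabp5 at 0.04 and Slc27a4 at -0.18.

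The lipid droplet genes leaned upward as a list. Of 8 tested genes of droplets and lipolysis control 3 rose (37.5%), 0 fell, all 8 changes were positive and the median was 0.93, against -0.03 over all probe sets. G0s2, an inhibitor of the lipase ATGL, read 267.5, 255.2 and 287.5 with the null virus and 895.2, 1255.6, 737.4 and 1167.1 with the PPARγ virus (3.63-fold, log2 1.86 ± 0.17 SE, adjusted p = 5.92e-05). The null virus arrays lay within a narrow band, and each PPARγ virus array was well above it. Angptl4, a secreted inhibitor of lipoprotein lipase, read 153.9, 77.6 and 112.9 with the null virus and 722.1, 890.4, 420.8 and 581.1 with the PPARγ virus (5.51-fold, 2.46 ± 0.35, adjusted p = 0.00324). Plin2, a coat protein of lipid droplets, rose in both probe sets. The brighter one went from 414.0 to 563.2 up to 1009.8 to 1707.9 (1.38 ± 0.23, adjusted p = 0.00860) and the dimmer one changed by 1.11 ± 0.18 (adjusted p = 0.00641). Both lost the call without null virus compound replicate 3, at adjusted p of up to 0.0691 and 0.0541. Members that did not pass were Hilpda, a lipase inhibitor (0.95), Pnpla2, which encodes ATGL (0.92), the monoglyceride lipase gene Mgll (0.66), Fitm2 (0.52) and Plin3 (0.26). Plin4 was too dim to be tested, at 20.1 to 25.4 with the null virus and 34.8 to 80.5 with the PPARγ virus. The fat cell coat gene Plin1 stayed at 9.8 to 14.7 and 12.6 to 16.4.

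Glycerol supply and triglyceride synthesis showed 3 rises among 10 tested genes (30%), 0 falls and a median of 0.49. Gpd1, which makes the glycerol 3-phosphate backbone of triglyceride, read 82.0, 69.6 and 77.0 with the null virus and 761.4, 463.9, 599.3 and 474.6 with the PPARγ virus (7.04-fold, log2 2.82 ± 0.24 SE, adjusted p = 2.09e-05). Dgat2, which adds the last acyl chain, read 112.1, 103.0 and 104.4 against 305.7, 391.3, 252.2 and 391.7 (3.01-fold, 1.59 ± 0.16, adjusted p = 0.000125). Both genes were tight with the null virus and clear of it in every PPARγ virus array. Aqp7, a channel for glycerol, read 23.3 in all 3 null virus arrays and 60.1, 48.2, 45.8 and 59.3 with the PPARγ virus (2.06-fold, 1.05 ± 0.17, adjusted p = 0.00641). Pck1, which feeds glycerol synthesis from pyruvate, did not pass at 1.00, nor did Dgat1, the second acyltransferase, at 0.42. Aqp3, a glycerol channel too dim to be tested, lay at 1.4 to 2.9 with the null virus and at 22.7 to 46.2 with the PPARγ virus. Gk, glycerol kinase, was dim in both groups, at 1.6 to 3.1 and 1.5 to 7.3.

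Oxidation of fatty acids held rises in both mitochondria and peroxisomes. Of 20 tested mitochondrial genes 3 rose (15%), 0 fell, 16 changes were positive and the median was 0.33. Acadvl, the very long chain acyl-CoA dehydrogenase that starts the cycle, read 153.8, 121.8 and 138.7 with the null virus and 281.1, 230.3, 239.7 and 279.8 with the PPARγ virus (0.88 ± 0.15, adjusted p = 0.0101). Its call was lost without null virus compound replicate 3 and without replicate 4 of that group, at an adjusted p of up to 0.0800. Decr1, a reductase for unsaturated fatty acids, read 310.5, 324.8 and 327.9 against 517.0, 504.6, 574.9 and 627.8 (0.78 ± 0.12, adjusted p = 0.00467) and passed in all 14 fits with an array left out. Acaa2, the thiolase that ends the cycle, read 201.3, 190.7 and 272.9 against 434.3, 373.6, 490.1 and 743.2 (1.16 ± 0.25, adjusted p = 0.0469), and passed in only 3 of those 14 fits (adjusted p up to 0.222). The entry gate of the mitochondrion, Cpt1a, did not pass at 0.34, and neither did Acadl (0.58, adjusted p = 0.0662) or Hadha (-0.02).

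In peroxisomes 2 of 13 tested genes rose (15.4%), 0 fell and the median was 0.22. Ehhadh, the bifunctional enzyme of peroxisomal oxidation, read 9.6, 10.6 and 10.7 with the null virus and 55.4, 42.4, 82.6 and 59.4 with the PPARγ virus (4.23-fold, log2 2.08 ± 0.33 SE, adjusted p = 0.00641). It too was above the filter in the 4 PPARγ virus compound arrays alone and could not be tested when one of them was dropped. It passed in the other 10 fits. Pex11a, which drives peroxisome division, read 78.9, 56.1 and 68.8 against 184.4, 154.2, 187.0 and 130.7 (2.32-fold, 1.22 ± 0.17, adjusted p = 0.00324). Cat, catalase, at 0.28 and Scp2 at 0.44 did not pass. Agps, which makes ether lipids in peroxisomes and lies outside the naming rule, also rose, from 7.3 to 19.1 up to 48.4 to 101.6 (2.10 ± 0.41, adjusted p = 0.0268). It passed in 9 of 14 fits with an array left out (adjusted p up to 0.141), and each loss was without a compound array.

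Fuel choice and sterol handling held 1 rise each. Pdk4, the kinase that holds pyruvate back from oxidation, read 34.1, 32.9 and 27.9 with the null virus and 74.2, 49.8, 64.0 and 53.2 with the PPARγ virus (1.78-fold, 0.83 ± 0.17, adjusted p = 0.0389). It was the single rise among 10 tested genes of pyruvate fate and uncoupling (10%, median -0.01), and passed in 3 of 14 fits with an array dropped (adjusted p up to 0.204). Nr1h3, which encodes the oxysterol receptor LXRα, read 24.5, 30.2 and 21.7 against 58.5, 61.1, 48.1 and 49.6 (1.96-fold, 0.97 ± 0.18, adjusted p = 0.0150), in 11 of those 14 fits (adjusted p up to 0.105). It was the single rise among 7 tested genes of cholesterol efflux and the LXR axis (14.3%, median 0.18), where Abcg1, a sterol exporter, did not pass at 0.31 and Apoe stood at -0.32. None of the 14 tested genes of fatty acid synthesis and desaturation passed (median -0.07, and 0.0724 without PPARγ compound replicates 2 and 4), with Elovl5, an elongase, at 0.44 (adjusted p = 0.0765) and Fasn, fatty acid synthase, at -0.22. None of the 15 cholesterol synthesis and uptake genes passed (median 0.10), with Insig1 at 0.54 (adjusted p = 0.359) and Cyp51 at -0.25.

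**Figure D2:**
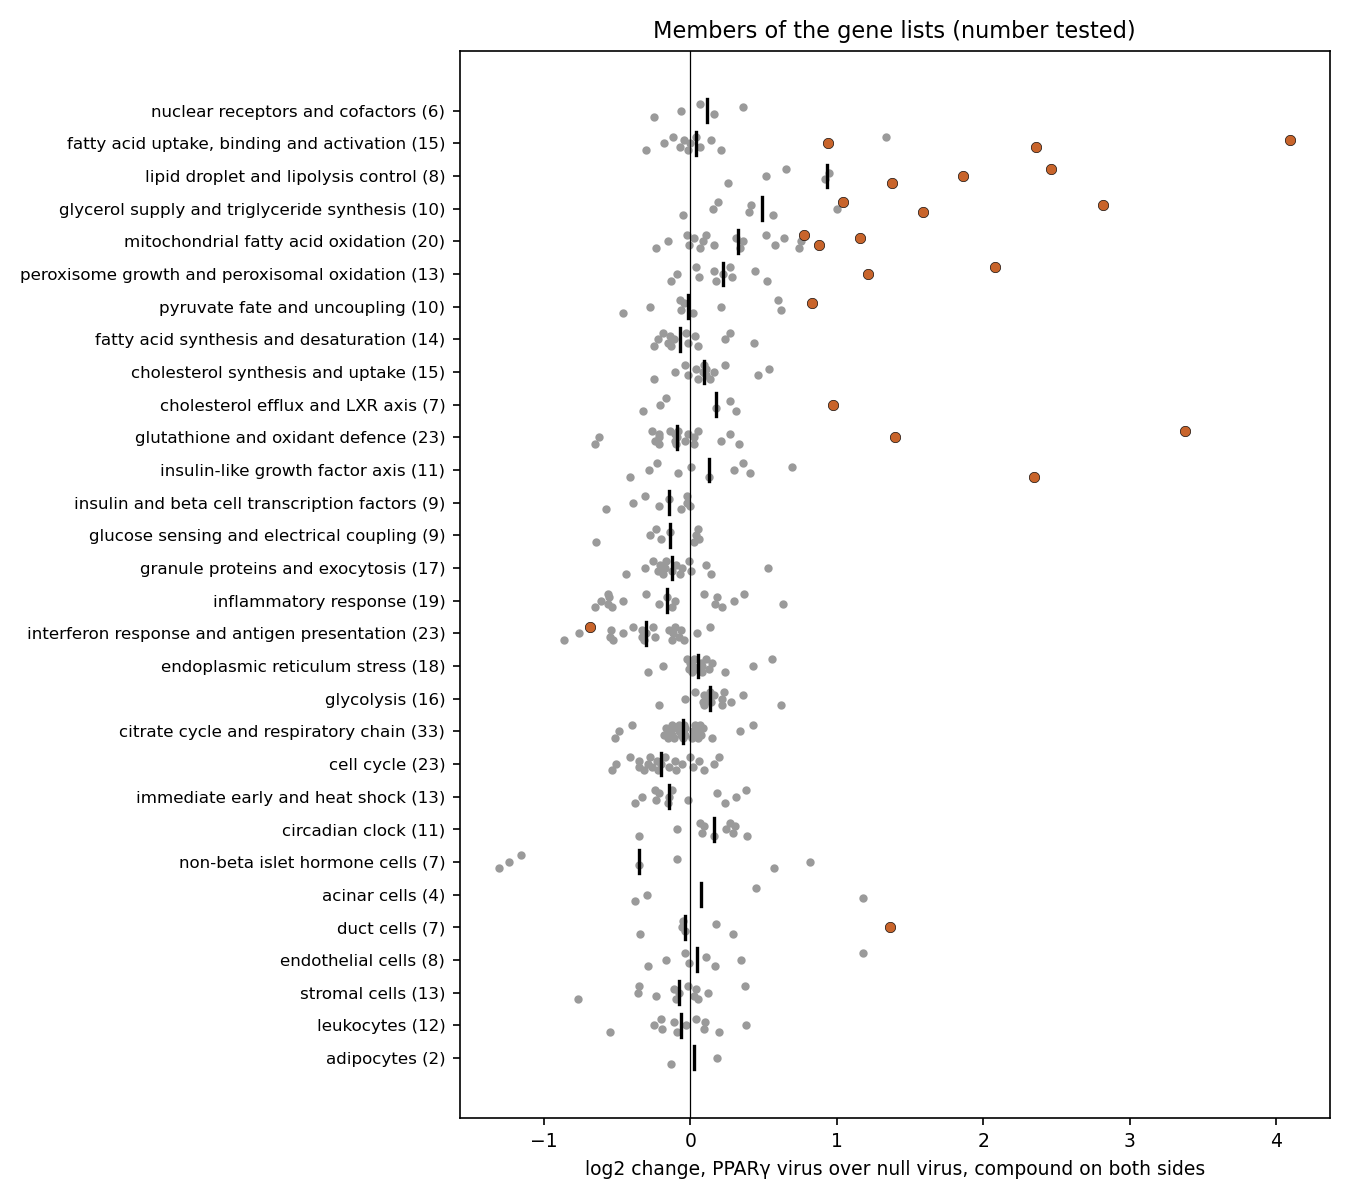
Log2 change with the PPARγ virus over the null virus, compound on both sides, for each tested member of the 30 gene lists (number tested in brackets). Orange points passed and grey ones did not, black bars mark the list median, and Pparg at 7.14 is not drawn; the droplet list has the highest median (0.93) and the non-beta hormone list the lowest (-0.35).

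Among detoxifying enzymes 2 of 23 tested genes rose (8.70%), 0 fell and the median was -0.09. Gsta4, a glutathione transferase for lipid aldehydes, read 36.5, 26.4 and 33.8 with the null virus and 587.2, 197.6, 630.0 and 271.4 with the PPARγ virus (10.4-fold, log2 3.38 ± 0.46 SE, adjusted p = 0.00235). Mgst1, a membrane-bound glutathione transferase, read 370.5, 241.4 and 432.9 against 977.8, 1035.5, 721.1 and 899.6 (2.64-fold, 1.40 ± 0.21, adjusted p = 0.00441). Gsta4 was high in PPARγ virus replicates 1 and 3 and lower in 2 and 4, the arrays low in Gcg, whereas Mgst1 had no such split. Gsta1, a relative of Gsta4 that did not pass (-0.10), had the opposite pattern over these arrays, at 180.0, 931.9, 199.3 and 890.1. The oxidant response gene Nqo1 stood at -0.62 and Gstm1 at -0.65, neither of which passed.

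The growth factor genes held a rise in a binding protein. Igfbp1, which binds insulin-like growth factors, read 33.9, 33.1 and 35.6 with the null virus and 280.1, 132.8, 315.1 and 116.4 with the PPARγ virus (5.09-fold, log2 2.35 ± 0.39 SE, adjusted p = 0.00916). It was 1 of 11 tested genes of its list (9.09%, median 0.13), and its call was lost without null virus compound replicate 3 (adjusted p up to 0.0558). Igf1 was higher in both its probe sets, but only the dimmer one passed. The dimmer one read 8.6, 6.9 and 9.0 against 92.7, 84.5, 55.2 and 82.9 (2.69 ± 0.42, adjusted p = 0.00641). The brighter one, which represents the gene in the list, had a smaller change of 0.69 and did not pass (adjusted p = 0.148). The receptor gene Igf1r was at -0.08 and Igfbp2 at -0.41, and neither passed.

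Igfbp1 followed the split of Gsta4, as did several other rises, among them Gpd1, and Duox2 and Cx3cl1, which lie outside the naming rule and were picked with their values in view. Duox2, a dual oxidase that makes hydrogen peroxide, read 310.6, 118.1, 271.2 and 110.1 in PPARγ virus replicates 1 to 4, against 43.5 to 55.3 with the null virus (1.85 ± 0.37, adjusted p = 0.0342). Cx3cl1, the chemokine fractalkine, read 142.3, 40.1, 128.7 and 31.0, against 7.8 to 17.8 (2.20 ± 0.47, adjusted p = 0.0491). In Gsta4, Igfbp1, Duox2 and Cx3cl1, replicates 2 and 4 were lowest, yet above every null virus array. Leaving out replicates 2 and 4, the lowest PPARγ virus arrays in these 4 genes, had to raise their changes. They became 4.07 for Gsta4, 2.96 for Igfbp1, 2.51 for Duox2 and 3.10 for Cx3cl1. All 4 genes still passed, which the way they were picked favoured. Gpd1, at 761.4, 463.9, 599.3 and 474.6, had a change of 3.08 without replicates 2 and 4. With other arrays left out one at a time, Duox2 passed in 8 of 14 fits (adjusted p up to 0.158) and Cx3cl1 in 3 (adjusted p up to 0.225). The part of islet cell makeup in these changes was not tested.

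**Figure D3:**
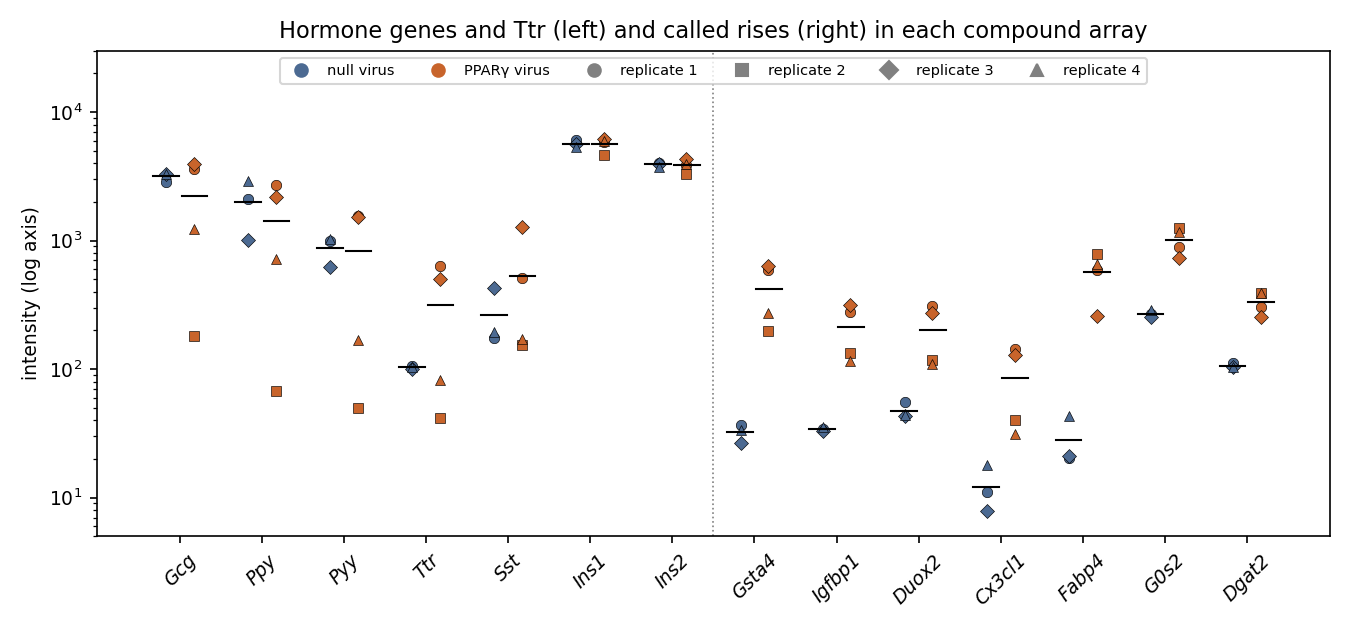
Intensity (log axis) of hormone genes and Ttr (left of the dotted line) and of 7 rises (right) in each compound array, with marker shape for the replicate number and a short line for the group mean. Gcg spans 180.8 to 3910.6 over the PPARγ virus arrays; Gsta4, Igfbp1, Duox2 and Cx3cl1 are lowest in the squares and triangles (replicates 2 and 4), while Fabp4, G0s2 and Dgat2 are lowest in the diamond (replicate 3).

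Several strong rises belong to none of the metabolic lists. Plek, pleckstrin, a kinase substrate of platelets and leukocytes, read 6.6, 5.6 and 7.4 with the null virus and 178.4, 112.4, 178.8 and 163.7 with the PPARγ virus (14.4-fold, log2 3.85 ± 0.31 SE, adjusted p = 1.90e-05). The null virus arrays were at the floor of the scale and every PPARγ virus array was above 100. Sgk2, a kinase related to the glucocorticoid-induced SGK1, read 27.6, 23.1 and 19.6 against 82.4, 82.3, 83.5 and 70.1 (3.02-fold, 1.59 ± 0.16, adjusted p = 7.89e-05). Fga, the fibrinogen alpha chain, read 28.7, 15.6 and 23.1 against 137.1, 79.9, 109.5 and 87.8 (4.00-fold, 2.00 ± 0.25, adjusted p = 0.00110), while its second probe set did not pass at 2.96 (adjusted p = 0.0915). Ang, the ribonuclease angiogenin, read 19.1, 17.4 and 29.3 against 196.9, 77.1, 160.1 and 94.3 (4.91-fold, 2.30 ± 0.34, adjusted p = 0.00421). Litaf, a protein of late endosomes, was bright in both groups, at 924.9, 682.0 and 923.8 against 1821.6, 1471.9, 1709.6 and 1556.1 (1.95-fold, 0.96 ± 0.12, adjusted p = 0.00119). Tinagl1, a matrix protein, read 30.5, 43.6 and 33.2 against 143.3, 98.3, 108.7 and 92.7 (2.85-fold, 1.51 ± 0.22, adjusted p = 0.00415). All 6 genes passed in each of the 14 fits with an array left out. In all 6 of them PPARγ virus replicates 2 and 4 lay below 1 and 3, so leaving out those 2 arrays had to raise the change. It became 2.81 for Ang, 2.26 for Fga and 4.04 for Plek. The part of islet cell makeup was not tested here either.

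A further 17 rising genes lie outside the naming rule and were picked with their values in view. Among secreted and surface proteins were ceruloplasmin, Cp (1.06), the adipokine chemerin, Rarres2 (1.35), the matrix protein dermatopontin, Dpt (1.10), the ephrin Efna5 (0.63) and transglutaminase 2, Tgm2 (1.56). Junction and actin genes were Cgnl1 (0.85), Afdn (0.92) and Wasl (0.88). Mitochondrial genes were Cluh, an RNA-binding protein for mitochondrial messages (0.76), the mitophagy receptor Bnip3l (0.60), Mettl17 (2.26) and the carbonic anhydrase Car5b (0.71). Regulators of transcription were Foxo3 (0.56), the coactivator Edf1 (0.51) and Irf2bp2 (0.71). Dhrs3, which reduces retinal, changed by 1.28 and Hmox2, a heme oxygenase, by 0.69. Of these 17 genes only Cluh passed in each of the 14 fits with an array left out. Second probe sets did not pass for Wasl (0.40), Bnip3l (0.74), Car5b (1.03) and Dpt (0.58), and for Cp there were 2 that did not (0.17 and 0.70).

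The falls were few and mostly small. Calml4, a calmodulin-like gene, read 233.9, 254.5 and 243.3 with the null virus and 105.3, 92.8, 132.6 and 108.1 with the PPARγ virus (log2 -1.13 ± 0.15 SE, adjusted p = 0.00235). It was the fall that passed in each of the 14 fits with an array left out. Amigo2, an adhesion molecule, read 357.5, 377.3 and 348.1 against 214.5, 164.9, 222.2 and 182.6 (-0.87 ± 0.14, adjusted p = 0.00798), and lost its call without null virus compound replicate 3. Stard3nl, an endosomal membrane protein, read 575.9, 590.1 and 536.2 against 379.3, 447.4, 395.0 and 329.6 (-0.55 ± 0.12, adjusted p = 0.0469), with a call in 3 of 14 fits and an adjusted p of up to 0.204. For the other named falls the probe sets disagreed or the list was weak. Mix23 fell by 0.86 in 1 probe set (44.6 to 51.0 against 21.4 to 26.7, adjusted p = 0.0304) and stood at 0.00095 in the other. Myh1, a myosin heavy chain, fell by 1.35 in 1 probe set (588.3 to 1027.0 against 220.1 to 350.0, adjusted p = 0.0406), while its 4 others lay between -0.08 and 0.36. Mix23 passed in 6 and Myh1 in 4 of the 14 fits, at adjusted p of up to 0.150 and 0.195.

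Antigen presentation and interferon genes held the remaining fall. Psmb9, an immunoproteasome subunit, read 177.4, 246.1 and 237.5 with the null virus and 126.7, 162.3, 128.4 and 122.0 with the PPARγ virus (-0.68 ± 0.14, adjusted p = 0.0417). Its call held in 3 of 14 fits with an array dropped (adjusted p up to 0.230). Of 23 tested genes of this list 1 fell, 0 rose, 21 changes were negative and the median was -0.30, against -0.03 over all probe sets. The larger negative values were those of the antiviral genes Mx2 (-0.86) and Irf7 (-0.76), which did not pass. Inflammatory genes had no call among 19 (median -0.16), with the NF-kappaB inhibitor gene Nfkbia at -0.65 (adjusted p = 0.140), the chemokine Cxcl10 at -0.56 (adjusted p = 0.150) and Il1b at -0.56. Cxcl1 (243.8 to 1488.8) and Ptgs2 (32.1 to 717.7) varied widely over the PPARγ virus arrays and were highest in replicate 2.

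Genes of the beta cell itself did not pass. Of 9 tested insulin and beta cell transcription factor genes all 9 changes were negative and the median was -0.15. Pdx1, a master factor of beta cells, read 276.2, 434.4 and 369.1 with the null virus and 208.3, 214.0, 272.2 and 254.1 with the PPARγ virus, which was lower in every array but did not pass (-0.58 ± 0.16 SE, adjusted p = 0.149). Neurod1 was at -0.39. Isl1, an islet cell factor, read 160.2, 143.3 and 140.1 with the null virus and 142.5, 105.7, 151.0 and 86.3 with the PPARγ virus (-0.31), and its change was -0.0088 without PPARγ compound replicates 2 and 4. The values of Ins1, Ins2 and Iapp were -0.02, -0.02 and -0.0013. None of the 9 genes of glucose sensing and electrical coupling passed (median -0.14), with the gap junction gene Gjd2 at -0.65 (adjusted p = 0.328) and Slc2a2, the glucose transporter GLUT2, at -0.20. None of the 17 granule and exocytosis genes passed (median -0.13), with Scg2 at -0.17, and without PPARγ compound replicates 2 and 4 the median was 0.18.

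Housekeeping programmes were likewise without calls. The median was 0.05 over 18 genes of endoplasmic reticulum stress, with Herpud1 at 0.56 and Xbp1 at 0.43, and 0.14 over 16 of glycolysis, with Pfkl at 0.62. It was -0.05 over 33 genes of the citrate cycle and respiratory chain, where Ndufa7 came nearest to a call at -0.48 (adjusted p = 0.0678). It was -0.20 over 23 cell cycle genes, with Ccne1 at -0.54 and Mcm6 at -0.41. It was -0.14 over 13 immediate early and heat shock genes, with Jun at 0.38, and 0.16 over 11 clock genes, with Cry2 at -0.35.

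Markers of other cell types mostly did not pass, and their summed intensities overlapped between the viruses. Krt19, a keratin of duct cells, read 138.7, 66.5 and 80.5 with the null virus and 296.1, 205.0, 226.3 and 245.2 with the PPARγ virus (2.58-fold, log2 1.36 ± 0.27 SE, adjusted p = 0.0284). It was 1 of 7 tested duct markers (14.3%, median -0.04, and 0.11 without PPARγ compound replicates 2 and 4), and the other 6 lay between -0.34 and 0.29. Krt19 passed in 9 of 14 fits with an array left out (adjusted p up to 0.164), and each loss was without a compound array. The duct sum was 6096.2 to 6913.6 with the null virus and 6260.9 to 7093.8 with the PPARγ virus. For leukocytes, which express Plek and in part Fabp4, 0 of 12 tested markers passed (median -0.06) and the sum was 842.4 to 1248.7 against 901.2 to 1356.2, with Ptprc, the pan-leukocyte gene, at 16.2 to 20.9 against 12.2 to 29.2. Fat cell markers could be tested in only 2 cases, neither of which passed (median 0.02). Lep, leptin, was near 0 at 1.4 to 1.8 and 1.3 to 2.2, and Cfd, adipsin, lay at 17.9 to 24.6 against 25.8 to 38.1. None of 4 acinar (median 0.08), 8 endothelial (0.05) or 13 stromal (-0.08) markers passed. The acinar gene Cela1, at 77.0 to 351.1 with the PPARγ virus against 37.5 to 85.2, and the endothelial gene Plvap, at 126.2 to 238.4 against 49.6 to 137.7, had the highest values (1.18 each). The part of other cell types in the rises was not tested.

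Both viruses were also compared in vehicle, on separate arrays, and the calls ran the same way there. All 64 rises had a positive change in vehicle and all 7 falls a negative one, but only 4 probe sets passed there as rises (0.0397%) and 0 as falls. The 4 were those of Pparg (7.22), Plek (2.65), Gpd1 (1.965) and Sgk2 (1.01), so their virus effect passed without agonist too. Over all tested probe sets the 2 virus effects correlated at r = 0.615. The share of all probe sets with like signs was not counted, so the agreement of the calls is a description. The median of the 64 rises was 1.19 with compound and 0.61 in vehicle, and 63 of the 64 were larger with compound, which is a description since the 64 were chosen with compound. Arrays of 1 virus and 1 number in vehicle and compound deviated together, so the 2 comparisons are not fully separate. The test of the difference itself called 0 probe sets in the fit without pairs (143 at an unadjusted p under 0.05, 1.42%). With each vehicle and compound array of the same virus and number taken as a pair, it called 5 (0.0496%, and 585 or 5.80% at an unadjusted p under 0.05), and each was larger with compound.

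Fabp4 had the largest of these differences. In vehicle it read 9.8, 14.9 and 26.3 with the null virus and 58.0, 41.2, 25.5 and 68.0 with the PPARγ virus, so the groups overlapped there by a narrow margin. Its virus effect was 1.28 in vehicle and 4.10 with compound, a difference of 2.81 ± 0.24 (SE, pairs as block, adjusted p = 0.00104). G0s2 read 228.2 to 259.4 with the null virus and 364.8 to 508.8 with the PPARγ virus in vehicle, and differed by 1.08 ± 0.11 (adjusted p = 0.00464). Gsta4 read 17.8 to 46.9 against 36.2 to 148.7 in vehicle and differed by 1.96 ± 0.28 (adjusted p = 0.0374). Igfbp1 read 40.2 to 50.8 against 43.3 to 172.3 and differed by 1.48 ± 0.21 (adjusted p = 0.0368). The fifth was a probe set with no gene name, at 1.78 (adjusted p = 0.0303). Without pairs all 5 had an adjusted p of 1.00. In the same paired fit Gpd1 (0.85, adjusted p = 0.180), Dgat2 (0.63), Angptl4 (1.43) and Plek (1.21) did not pass. Among negative differences, where the signed change was lower with compound, nothing passed in either fit. In the fit without pairs, the lowest p among them were those of Tbca (-0.35), Anks4b (-0.79), Sart3 (-0.70), Dkc1 (-0.92) and Mindy1 (-0.95). In each of these the change was negative with compound and positive in vehicle. On the positive side of that fit they were those of Fabp4, G0s2, Aqp7 (0.90), Xylt2 (0.80) and Acsl1 (0.78), which did not pass there.

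**Figure D4:**
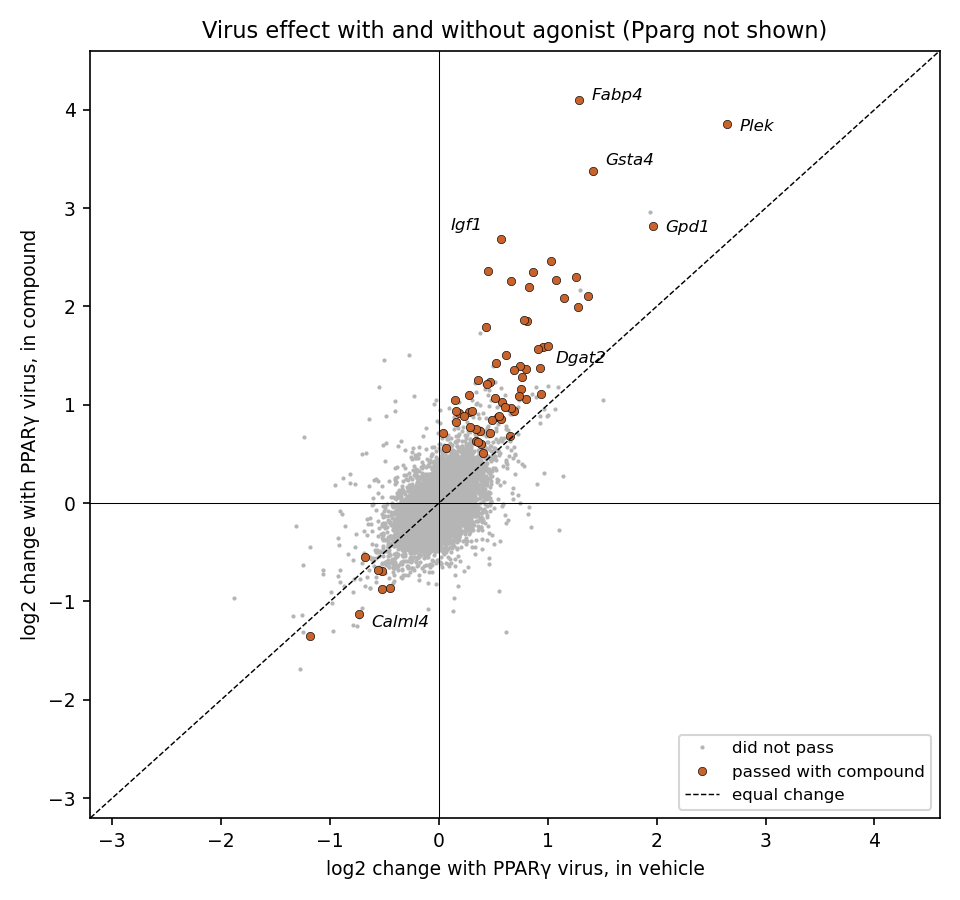
Log2 change with the PPARγ virus over the null virus in compound (vertical) against vehicle (horizontal) for each tested probe set, Pparg left out for its size. Orange points passed with compound and the dashed line marks equal change; 63 of the 64 rises, Pparg counted, have the larger change with compound, and Fabp4 (4.10 against 1.28) lies farthest from the line.

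Promoter sequence was looked at because PPARγ is a receptor with a known DNA element. The consensus of that element, known as DR1, is a direct repeat of AGGTCA with 1 base of any kind (N) between the copies. It was searched on both strands, allowing up to 2 mismatches over its 12 fixed bases, in RefSeq promoter windows of GRCr8 that run from 250 bases before to 50 bases after the start. Of 42 rising genes with a window 4 held a match (9.52%), against 3.71% of 27457 promoters of the table and 2.60% of 6353 promoters of tested genes. Of 6 falling genes 0 held one. The count was not tested, a match is a description, and no match says only that these letters are not in this window. The matches closest to the consensus, with 1 mismatch each, were those of Acadvl and Tinagl1, and they are shown with the match in capitals. The Acadvl window is chr10:55236656-55236955, minus strand, with the match on the strand of the gene from base -17 to -5 of the start. The Tinagl1 window is chr5:147807214-147807513, minus strand, with the match on the opposite strand from base -35 to -23, where it reads AGGTCAGGGGTCA.
Acadvl: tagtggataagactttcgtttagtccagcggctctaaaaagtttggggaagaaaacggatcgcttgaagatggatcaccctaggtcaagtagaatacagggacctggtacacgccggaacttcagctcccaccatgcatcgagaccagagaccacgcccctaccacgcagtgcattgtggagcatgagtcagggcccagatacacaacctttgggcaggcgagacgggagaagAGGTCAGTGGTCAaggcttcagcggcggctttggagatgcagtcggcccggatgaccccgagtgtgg
Tinagl1: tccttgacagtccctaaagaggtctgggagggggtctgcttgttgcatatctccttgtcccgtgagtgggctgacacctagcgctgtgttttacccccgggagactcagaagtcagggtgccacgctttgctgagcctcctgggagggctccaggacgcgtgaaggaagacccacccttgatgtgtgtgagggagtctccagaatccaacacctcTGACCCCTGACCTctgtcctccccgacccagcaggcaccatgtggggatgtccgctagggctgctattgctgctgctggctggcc
Acadvl rose from 121.8 to 153.8 up to 230.3 to 281.1 and Tinagl1 from 30.5 to 43.6 up to 92.7 to 143.3. The other matches, with 2 mismatches each, were in Arl6ip1 (0.88) and Car5b (0.71). Fabp4 had no window in the table.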

How the data were processed

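Gene expression was measured on a rat oligonucleotide array. The authors deposited 1 linear intensity per probe set, scaled so that the mean after trimming 2% at each end was 150.0 in each array (checked on the values); the summarising software is not given in the sources used here, nor is a build. An array holds no read depth, and the number of arrays limits precision. Gene symbols came from the platform annotation, and 12754 of 12789 single-gene probe sets matched a RefSeq gene identifier.

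Of 16 columns (4 groups of 4), 2 equal ones under conflicting labels were left out. Values were taken as log2(intensity + 4.6), 4.6 being the 10th percentile of positive values. A probe set was tested if above 39.3, the 40th percentile, in at least 4 of 14 arrays (10078 probe sets; 57 controls out). limma 3.58.1 in R 4.3.3 (lmFit, eBayes with trend) fitted a mean per group over the 14 arrays, so the 4 groups share 1 estimate of spread, with Benjamini-Hochberg adjustment over all tested probe sets and a threshold of 0.05. The fit was tested on simulated data. Array measures were compared by exact permutation in Python 3.11.15 with scipy 1.17.1.

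Members and lists were chosen with earlier results of these data known. Named were Pparg, up to 15 rises and 15 falls of 1 gene without overlap of arrays, by smallest adjusted p, passing list members, up to 3 members of a list without a call, and for the difference between compound and vehicle up to 8 calls a direction, or the 5 and 5 with the smallest p; other names were chosen after their values were seen. For a list gene with several probe sets, the brightest on average stood for it. Lists got counts and medians, no set test.

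Pairing by replicate number was checked on each array's deviations from its group. Within a virus, vehicle and compound arrays of 1 number correlated (r = 0.445 to 0.702 in 7 of 7 pairs, across probe sets), so that pairing is used beside the difference. Between viruses with compound, r was 0.302, -0.005 and -0.022 for numbers 1, 3 and 4, so arrays were not paired there. Alternatives changed the pseudocount, filter, scaling, variance trend, block, and the arrays entered.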

Additional observations from a re-analysis of the deposited data

Results flagged for a closer look

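In 2 of 74 groups of 4 PPARγ virus compound arrays tested for a sample apart from the others (Dixon's ratio of gap to range, at its 95% critical value), 1 array stood apart; chance alone sets apart about 1 in 20 groups. For Sgk2 the lowest array, replicate 4 at 70.1 beside 82.3 to 83.5, gave a ratio of 0.91. For Psmb9 the highest array, replicate 2 at 162.3 beside 122.0 to 128.4, gave 0.841. Neither value reached the null virus arrays, whose nearest were 27.6 and 177.4.

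The virus effect differed between compound and vehicle, by limma's test of the difference with same-number arrays of a virus as pairs, for Fabp4 by 2.81, for Gsta4 by 1.96, for an unnamed probe set by 1.78, for Igfbp1 by 1.48 and for G0s2 by 1.08 on the log2 scale. The planned fit without pairs called 0 probe sets for this difference, and the pairs as a random block gave 2. The paired fit was added to the planned ones and was not rerun with an array left out. The unnamed probe set read 25.5, 30.0 and 10.7 with the null virus and 83.6, 49.4, 111.6 and 42.3 with the PPARγ virus in compound, and 33.4 to 56.7 against 26.2 to 61.1 in vehicle. Its virus effect with compound alone did not pass (adjusted p = 0.0880). Of the 5, Gsta4, Igfbp1 and the unnamed probe set were lowest in PPARγ virus compound replicates 2 and 4, the arrays low in Gcg, and the part of islet cell makeup in them was not tested.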

How the results depend on the processing

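None of the 71 calls reversed its direction under any alternative run. Of named probe sets that did not pass, Gcg (0.25), Ppy (0.40) and Adipor2 (-0.0286) changed sign without PPARγ compound replicates 2 and 4, and Cpb1 ranged from -0.47 to 0.0075 with 1 array left out. With 1 array left out, the difference between viruses ranged from -0.0469 to 0.017 for log2 median intensity and from -0.12 to 0.15 for the log2 actin ratio, so both changed sign. Of the 71 calls, 25 (24 of them rises) passed in each of the 14 fits that left out 1 array, and 9 of these also passed in each of the 14 other alternatives: Pparg, the Cd36l1 and Cd36 probe set, Gpd1, G0s2, Fabp4, Dgat2, Litaf, Angptl4 and Calml4. Another 7 passed wherever they were tested but fell below the filter in some alternatives with fewer arrays or a higher filter (Plek, Sgk2, Fga, Gsta4, Ang, Igf1 and Aqp7). All but Gsta4 were above the filter in PPARγ virus arrays alone, and Gsta4 also in null virus vehicle replicate 1 (46.9). The filter thus let them in mainly through the virus with which they were high, and the fits on 6 compound arrays could not test them. The count of calls lay between 31 and 71 with 1 array left out. It was 43 without PPARγ compound replicates 2 and 4, an alternative chosen after seeing the data. It stayed within 1.5 times of 71 under the other pseudocounts (70 and 71), without a filter (80) or with one at the median (60), after quantile normalization (69), without variance trend (70), with the doubly labelled array kept as null virus compound (77), with all 16 columns (100), with the 7 compound arrays alone (50) and with a random block within each virus (73). The replicate number as a block over all groups gave 211 calls (154 rises and 57 falls). The labels do not say whether the numbers pair arrays of different viruses. In the check of deviations, number 1 correlated between viruses (r = 0.302 with compound, 0.433 in vehicle). Numbers 3 and 4 did not (-0.005 and -0.022 with compound, -0.12 and 0.12 in vehicle). In the 6 compound arrays with shared numbers, there were 26 calls with that replicate block and 24 without it. For the difference between compound and vehicle, the count of 0 became 3 when the replicate block ran over all groups, 5 with pairs within each virus and 2 with these pairs as a random block. It stayed at 0 in each fit with 1 array left out, which were run without pairs.

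List medians moved by more than the spread of arrays in few cases. The LXR median was 0.00361 with the filter at the median and 0.0291 in the 6 arrays, with and without block. The acinar median was 0.99 in those 6 arrays. The fat cell median was 0.18 with the filter at the median and in the 7 arrays alone. Without PPARγ compound replicates 2 and 4, medians were 0.0724 for fatty acid synthesis, 0.18 for granule genes, 0.32 for clock genes and 0.11 for duct markers, so that 3 of these 4 turned from negative to positive. With 1 array left out, medians ranged from 0.79 to 1.14 for lipid droplet genes, from -0.0538 to 0.11 for duct markers and from -0.0144 to 0.18 for fat cell markers. With at most 1 mismatch 2 rising genes held the promoter motif, and with at most 3 there were 13. Signal limits the 22 rises whose null virus mean was below 39.3, where the size of the fold depends on the pseudocount. The cause of these changes was not tested.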
